A study of Rattus norvegicus with 6 samples.

Results

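The Cyp2 and Cyp3 genes encode the main drug- and steroid-metabolising cytochrome P450 enzymes of the liver. Members were all genes whose symbol in the array's annotation reads Cyp2 or Cyp3 followed directly by a letter, each represented by the brightest of its probe sets that carry 1 gene symbol. This gave 42 genes (37 Cyp2 and 5 Cyp3) of 22093 genes on the array, from 46 probe sets. A further probe set, shared by 2 genes of the Cyp2a subfamily, was not used here because it names neither. Liver RNA of 6 adult Sprague Dawley rats was measured, each on 1 array. The STZ-O group (n = 3) were offspring of males made hyperglycaemic by intraperitoneal streptozotocin, a compound that destroys the insulin-producing beta cells. The CB-O group (n = 3) were offspring of males injected with citrate buffer, which had normal blood glucose. The mothers of both groups were healthy and untreated, so the 6 rats themselves received no drug according to the labels. All ate regular chow and were killed fed, 1 rat was taken per litter, and sex was not distinguished. The labels give neither the exact age nor the number of fathers. The series asked how hyperglycaemia of the father affects metabolism in the next generation.

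Cytochrome P450 enzymes are haem proteins of the endoplasmic reticulum that insert an oxygen atom into lipophilic substrates, with electrons delivered by the reductase encoded by Por. In hepatocytes many Cyp2b, Cyp2c and Cyp3a genes are induced by foreign compounds through the nuclear receptors CAR (Nr1i3) and PXR (Nr1i2). In rats several members also differ strongly between the sexes, because pulsatile growth hormone in males and continuous growth hormone in females act differently on their transcription.

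The values are log2 expression after robust multi-array averaging (RMA), so a difference of 1 is a 2-fold change. The tissue label was borne out by the markers: the 9 measured hepatocyte markers averaged between 7.84 and 13.15, and the 6 markers of kidney, gut or lung epithelium between 4.83 and 6.11. Y-linked transcripts were at similar levels on all 6 arrays. Ddx3y was at 9.44, 9.36 and 9.43 in STZ-O livers, against 9.22, 9.67 and 9.37 in CB-O livers, and Kdm5d, Uty and Eif2s3y lay between 7.59 and 8.67 on every array. Usp9y and Zfy1 lay between 3.37 and 3.82, below the median of the negative control probes (5.51), on every array. Markers of sinusoidal endothelium were low on STZ-O replicate 3, with a mean deviation of the 10 genes from their 6-array means of -0.39. It was 0.08 and 0.06 for STZ-O replicates 1 and 2, and 0.21, 0.05 and -0.0089 for CB-O replicates 1 to 3. The 10 Kupffer cell and macrophage markers were low on the same array, at -0.36, with 0.17 and 0.19 for STZ-O replicates 1 and 2 and 0.02, 0.03 and -0.05 for the CB-O arrays. Markers of stellate cells, cholangiocytes and blood leukocytes were not low there (0.04, 0.04 and 0.10). The part of this in the results was not tested. In whole liver, fewer cells of a type and less RNA per cell cannot be told apart.

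As a family, the Cyp2 and Cyp3 genes had no common direction of difference between offspring of hyperglycaemic and of control fathers. In limma's test over all genes with Benjamini-Hochberg adjustment, 0 of the 42 members passed at 0.05, as did 0 of 22093 genes (0%). The smallest adjusted p among members was 0.748. At an unadjusted p under 0.05, 2 members were higher in STZ-O (Cyp2c7 and Cyp2c80) and 0 were lower, or 4.76% of members, against 5.68% of all genes (3.2% higher and 2.48% lower). By sign alone, STZ-O had the higher mean for 20 members and the lower for 22. The median member differed by -0.0019 and the median gene of the array by -0.0037. The groups did not overlap for 2 members, 4.76% of them, against 10.1% of all genes: Cyp2c7 was higher on every STZ-O array (5.2% of all genes were) and Cyp2ab1 lower (4.93% of all genes were). Both shares of members were thus close to or under those of all genes. The member that differed most was Cyp2c80, at 0.53, and the most negative difference was -0.23, for Cyp3a62. Regardless of sign, the median difference was larger for members (0.091) than for all genes (0.055). Among those above the 95th percentile of negative controls it was 0.147 and 0.064. A difference above 0.2 in size was reached by 6 of 42 members and by 1392 of 22093 genes. The median standard deviation over the 6 arrays was also larger for members, at 0.134 against 0.093.

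**Figure D1:**
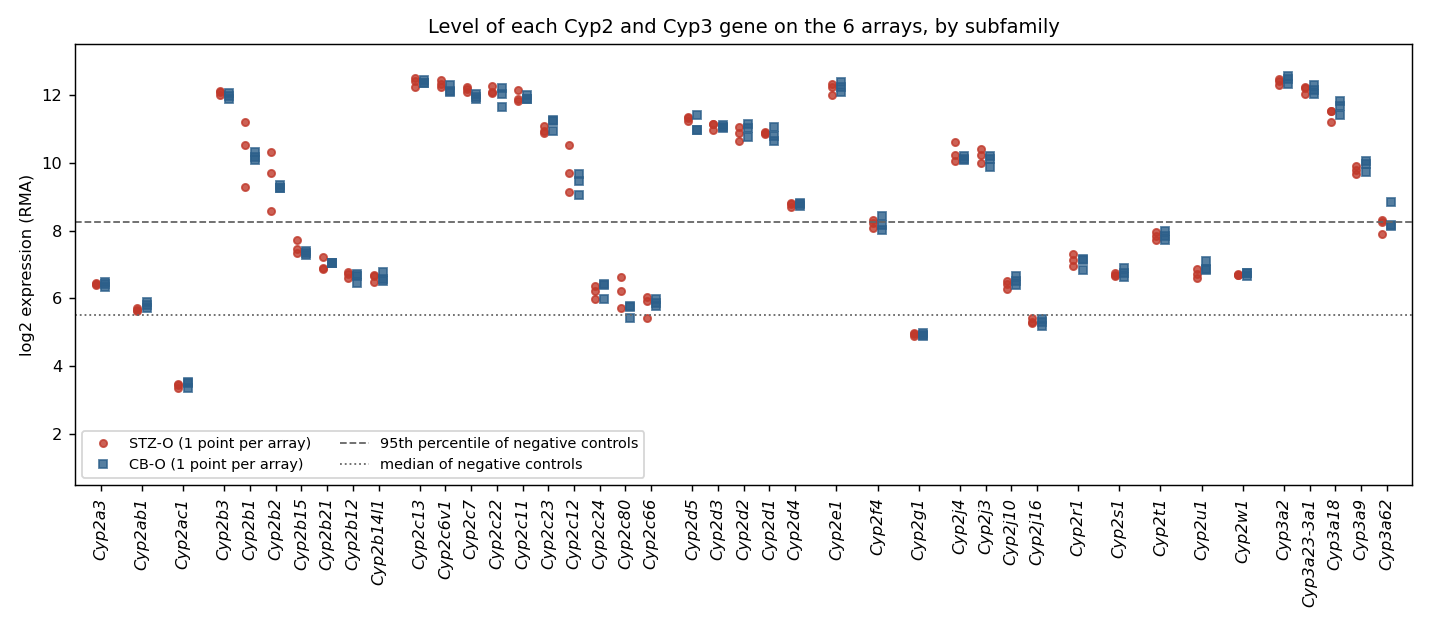
Log2 expression of the 42 Cyp2 and Cyp3 genes on each array, ordered by subfamily and then by brightness, with STZ-O arrays as circles to the left and CB-O arrays as squares to the right of each gene. Horizontal lines mark the median (5.51) and the 95th percentile (8.26) of the negative controls; the points of most genes lie close together, while Cyp2b1, Cyp2b2, Cyp2c12 and Cyp2c80 spread widely in STZ-O.

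The family is bright in liver, although brightness also depends on the probes, so the order of genes below is one of signal and not of transcript number. Of the 42 members, 13 lay among the brightest 1% of all genes and 21 among the brightest 5%. In all, 23 members averaged above 8.26, the 95th percentile of 1153 negative control probe sets, as did 13.2% of all genes, and 39 averaged above the control median. The brightest member was Cyp3a2 at a mean of 12.4 over the 6 arrays, followed by Cyp2c13, Cyp2c6v1, Cyp2e1 and Cyp3a23-3a1, all between 12.2 and 12.4. Each of the 5 Cyp2d and 5 Cyp3a genes averaged above 8.26, as did 7 of 10 Cyp2c, 3 of 7 Cyp2b and 2 of 4 Cyp2j genes. Cyp2e1 was the only other member to do so. The dimmest members were Cyp2ac1 at 3.45, Cyp2g1, which is known from olfactory mucosa, at 4.94, and Cyp2j16 at 5.31, all under the control median.

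In the Cyp2b subfamily, Cyp2b1 and Cyp2b2 are the classic phenobarbital-inducible genes acting downstream of CAR. For both, the STZ-O animals differed among themselves more than the CB-O animals did. Cyp2b1 was at 9.29, 11.19 and 10.51 in STZ-O livers (replicates 1 to 3), against 10.07, 10.30 and 10.17 in CB-O livers. STZ-O replicate 1 was thus the lowest of the 6 arrays and STZ-O replicates 2 and 3 the highest, so that the CB-O arrays lay wholly within the STZ-O range. Cyp2b2 was at 8.56, 10.31 and 9.71 in STZ-O livers, against 9.26, 9.33 and 9.25 in CB-O livers, with the STZ-O arrays in the same order. The range among STZ-O arrays was 3.72-fold for Cyp2b1 and 3.35-fold for Cyp2b2, while among CB-O arrays it was 1.17-fold and 1.06-fold. The group means did not differ beyond this spread: the difference was 0.15 ± 0.40 (moderated SE, n = 3 per group; 95% interval -0.79 to 1.08, limma adjusted p = 0.993) for Cyp2b1 and 0.25 ± 0.37 (-0.61 to 1.11, limma adjusted p = 0.988) for Cyp2b2. Both differences changed sign without STZ-O replicate 2, to -0.28 and -0.14.

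The spread of these genes was among the widest of the array in STZ-O. By the standard deviation over the 3 STZ-O arrays, Cyp2b1 (0.96) ranked 9 and Cyp2b2 (0.89) ranked 12 among 22093 genes, while by that over the CB-O arrays they ranked 7010 (0.12) and 17866 (0.044). Both genes were singled out after their values were seen, and the difference in spread was not tested. Over all members, the STZ-O arrays had the larger standard deviation for 17 genes and the CB-O arrays for 25, and over all genes STZ-O had the larger for 47.2%. A standard deviation above 0.4, a limit set after seeing the values, was reached in STZ-O by 4 members, Cyp2b1, Cyp2b2, Cyp2c12 and Cyp2c80, and by 160 of all genes. In CB-O it was reached by Cyp3a62 and by 176 of all genes.

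**Figure D2:**
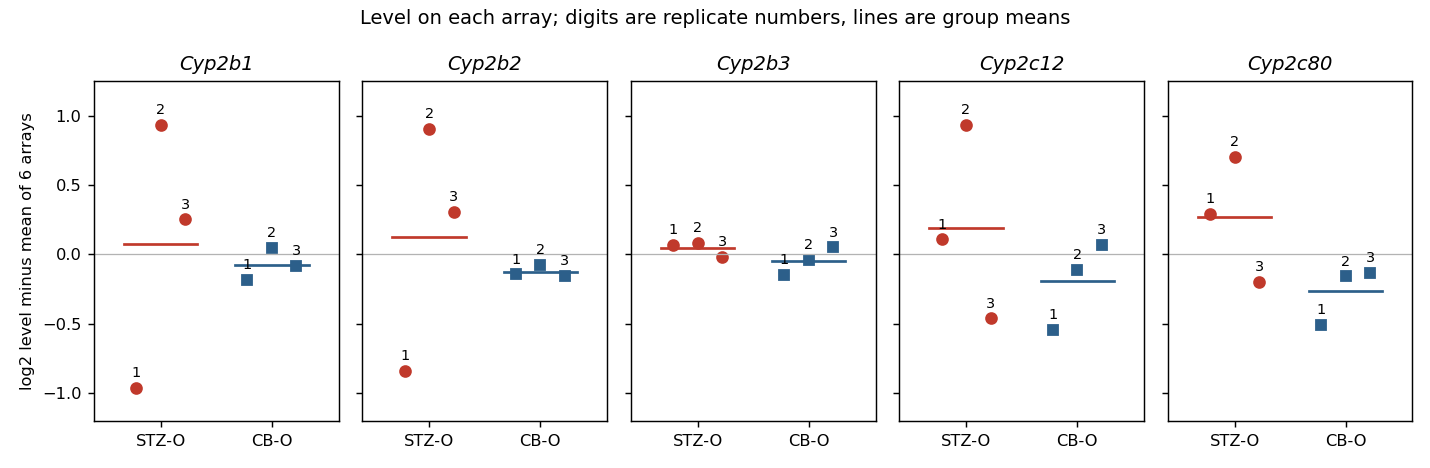
Level of 5 members on each array as the log2 deviation from the mean of the 6 arrays, STZ-O to the left and CB-O to the right in each panel, with replicate numbers beside the points and group means as lines. Cyp2b1 and Cyp2b2 run from STZ-O replicate 1 (lowest) to STZ-O replicate 2 (highest) around close CB-O points, and Cyp2b3 stays near 0. Cyp2c12 and Cyp2c80 place the 6 arrays in the same order as each other, which was noticed after the values were seen.

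Cyp2b3, a constitutive liver member of the same cluster, did not follow this pattern. It was at 12.09, 12.10 and 12.00 in STZ-O livers, against 11.87, 11.98 and 12.07 in CB-O livers, a difference of 0.09 ± 0.07. The group ranges overlapped and no array stood apart. Cyp2b3 was also brighter, at a mean of 12.02 against 10.26 for Cyp2b1 and 9.40 for Cyp2b2. Differences of very bright probe sets are compressed, and the part of this in the contrast was not tested. Cyp2b15, which averaged 7.42, was at 7.33, 7.73 and 7.45 in STZ-O livers, against 7.40, 7.29 and 7.33 in CB-O livers (difference 0.16 ± 0.10). It had the STZ-O order of Cyp2b1, as did 9 members in all (itself and Cyp2b1 included). The rest were Cyp2b2, Cyp2c11, Cyp3a2, Cyp3a9, Cyp3a23-3a1 and the dim Cyp2ab1 and Cyp2w1. With 3 arrays few orders are possible, and the share of all genes with this order was not counted. Cyp2b12, Cyp2b14l1 and Cyp2b21 averaged between 6.61 and 7.01.

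The sequence just upstream of the 3 neighbouring genes Cyp2b1, Cyp2b2 and Cyp2b3 is shown, from RefSeq on the rat build GRCr8, plus strand. These genes were picked after their values were seen. Any part of this sequence in their levels was not tested, and sequence further upstream was not examined. Each stretch ends at the last base before the gene's outermost annotated start, and capitals mark matches to the C/EBP core TTGCNNAA, the motif of liver-enriched C/EBP factors.
Cyp2b1 (chr1:90645869-90646097): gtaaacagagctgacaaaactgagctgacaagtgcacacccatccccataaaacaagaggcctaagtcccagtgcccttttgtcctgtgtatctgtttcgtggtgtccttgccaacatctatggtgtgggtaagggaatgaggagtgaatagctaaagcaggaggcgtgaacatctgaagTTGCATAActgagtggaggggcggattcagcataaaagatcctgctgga
Cyp2b2 (chr1:90722031-90722242): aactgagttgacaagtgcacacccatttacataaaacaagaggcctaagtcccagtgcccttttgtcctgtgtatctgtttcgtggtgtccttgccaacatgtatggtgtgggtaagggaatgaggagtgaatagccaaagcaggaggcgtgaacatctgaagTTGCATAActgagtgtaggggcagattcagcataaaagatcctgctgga
Cyp2b3 (chr1:90780242-90780467): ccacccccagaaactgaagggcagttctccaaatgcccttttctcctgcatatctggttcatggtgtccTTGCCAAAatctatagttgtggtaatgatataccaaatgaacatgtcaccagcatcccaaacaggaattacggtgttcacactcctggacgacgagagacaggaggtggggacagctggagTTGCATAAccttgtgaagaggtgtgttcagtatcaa
In a global alignment the stretches of Cyp2b1 and Cyp2b2 were 89.1% identical (204 identical positions, 8 mismatches and 17 gap positions), against 49.6% for Cyp2b1 and Cyp2b3 and 56.0% for Cyp2b2 and Cyp2b3. Gap positions lower these percentages. The Cyp2b1 stretch has 229 bases and that of Cyp2b2 has 212, so the 17 gap positions of this pair reflect unequal length. Where bases of the pair were aligned, they differed only at the 8 mismatches.

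All 3 stretches hold TTGCATAA, and Cyp2b3 holds a further match. Over the 250 bases before the start of transcription in the RefSeq table, searched on both strands, TTGCNNAA was found in 15 of the 37 members with an entry and in 9.22% of all 33469 promoters. For the TATA box core TATAAA the counts were 12 of 37 members and 12.9% of all promoters, for the nuclear receptor element AGGTCA 12 of 37 and 14.1%, for the STAT core TTCNNNGAA 2 of 37 and 7.67%, and for the HNF1 element GTTAAT 3 of 37 and 6.45%. TATAAA and AGGTCA can overlap each other, as they do in Cyp2c7. Members of a cluster share ancestry, so they are not independent promoters, and a match describes letters only.

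Near-identical relatives can also share hybridisation, so the values of Cyp2b1 and Cyp2b2 are uncertain as to which of the pair they measure. The probe set annotated as Cyp2b1 has an identifier whose chromosome field reads 7, whereas RefSeq places Cyp2b1 on chromosome 1. For the 40 other members with a chromosome in RefSeq the identifier and RefSeq gave the same chromosome. What this probe set measures was not tested.

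**Figure D3:**
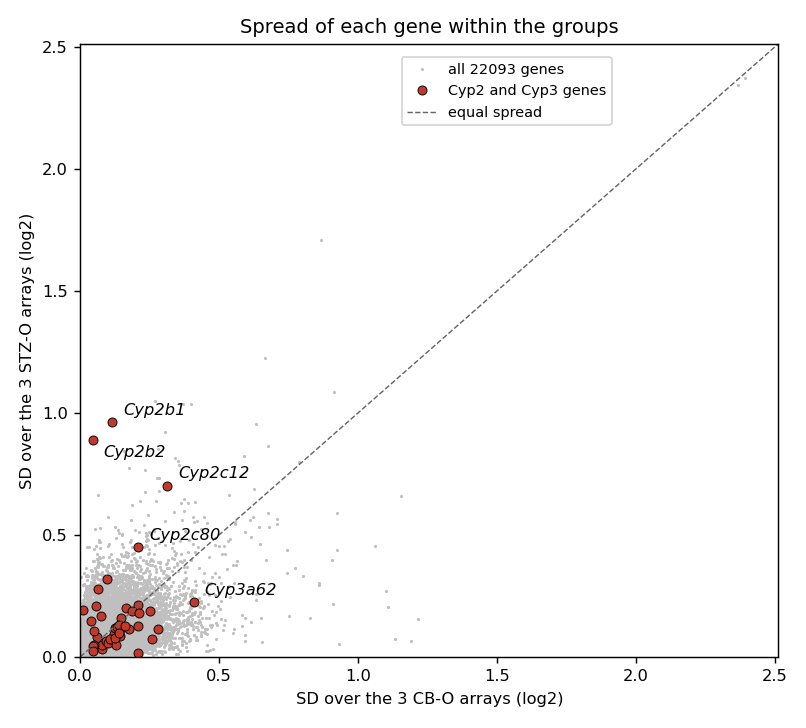
Standard deviation (log2) over the 3 CB-O arrays on the horizontal axis and over the 3 STZ-O arrays on the vertical axis, for all 22093 genes in grey and the Cyp2 and Cyp3 genes in red, with a dashed line of equal spread. Cyp2b1 and Cyp2b2 lie at 0.96 and 0.89 on the STZ-O axis and at 0.12 and 0.044 on the CB-O axis, and Cyp3a62 lies at 0.41 on the CB-O axis.

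Of the 5 measured P450 genes listed as inducible through CAR or PXR, which include Cyp2b1 and Cyp2b2, 4 had a higher and 1 a lower STZ-O mean (median 0.15) and 0 passed. The others had narrower ranges than Cyp2b1. Cyp2c6v1, the constitutive and mildly inducible Cyp2c enzyme, was at 12.24, 12.31 and 12.42 in STZ-O livers, against 12.07, 12.12 and 12.30 in CB-O livers. The difference of 0.16 ± 0.08 did not pass (limma adjusted p = 0.912), the ranges overlapped, and the other Cyp2c6v1 probe set differed by 0.22. Cyp3a23-3a1, the dexamethasone-inducible Cyp3a gene, was at 12.04, 12.22 and 12.20 in STZ-O livers, against 12.02, 12.29 and 12.14 in CB-O livers, a difference of 0.0038 ± 0.09. Its STZ-O arrays had the order of Cyp2b1, within a far smaller range. Of 9 measured non-P450 targets (conjugating enzymes and transporters), the STZ-O mean was higher for 6 and lower for 3 (median 0.025), and 0 passed. The groups did not overlap for 2 of the 9, both higher (5.2% of all genes were), and 1 had an unadjusted p under 0.05 (5.68% of all genes had). That 1 was Abcc2, the canalicular exporter of conjugates, at 11.23, 11.34 and 11.29 in STZ-O livers, against 10.94, 10.90 and 10.97 in CB-O livers. Its difference was 0.35 ± 0.06 (1.27-fold, unadjusted p = 0.00035, limma adjusted p = 0.365), and between 0.32 and 0.38 when any 1 array was left out. The other was Ephx1, the microsomal epoxide hydrolase, at 0.10 ± 0.06. The mean deviation of these 9 was 0.03, 0.07 and -0.03 in STZ-O livers, against -0.05, 0.07 and -0.09 in CB-O livers. That of the 5 listed P450 genes, Cyp2b1 and Cyp2b2 included, was -0.46, 0.39 and 0.16 in STZ-O livers. In CB-O livers it was -0.15, -0.02 and 0.08. The part of receptor activity in either list was not tested. The receptors differed little: Nr1i2 by -0.02 ± 0.15 and Nr1i3 by 0.08 ± 0.12. The 11 markers of pericentral hepatocytes, the zone in which these P450 genes are mainly expressed, include the member Cyp2e1. They were lowest on STZ-O replicate 2, at a mean deviation of -0.21. It was 0.06 and 0.02 for STZ-O replicates 1 and 3, and -0.011, 0.16 and -0.011 for CB-O replicates 1 to 3. The part of this in the Cyp2b values was not tested.

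The Cyp2c subfamily, the most numerous here, held both members with an unadjusted p under 0.05. Cyp2c7, a retinoic acid and steroid hydroxylase that is more abundant in female rats, was at 12.23, 12.07 and 12.18 in STZ-O livers, against 12.01, 11.89 and 11.94 in CB-O livers. All 3 STZ-O arrays were above all CB-O arrays. The difference was 0.21 ± 0.07 (1.16-fold, 95% interval 0.06 to 0.36, unadjusted p = 0.0127, limma adjusted p = 0.748), and between 0.18 and 0.25 when any 1 array was left out. A dimmer probe set of Cyp2c7, at a mean of 4.64 and thus below the control median, differed by -0.0045. With the mean of both probe sets the difference was 0.10 (unadjusted p = 0.152, limma adjusted p = 0.952).

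Cyp2c80, listed in RefSeq as another name of Cyp2c55, differed most in size but was dim. It was at 6.21, 6.62 and 5.72 in STZ-O livers, against 5.41, 5.76 and 5.78 in CB-O livers. The ranges overlapped, since STZ-O replicate 3 lay below 2 of the CB-O arrays. The difference was 0.53 ± 0.21 (1.45-fold, unadjusted p = 0.0367, limma adjusted p = 0.843), 0.32 without STZ-O replicate 2 and 0.76 without STZ-O replicate 3. At a mean of 5.92 it was brighter than 32.8% of genes and below the 95th percentile of negative controls.

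Cyp2c12, the female-specific steroid sulphate hydroxylase of adult rat liver, placed the 6 arrays in the same order as Cyp2c80, as did Cyp2j3. This was noticed after the values were seen, and the share of all genes with this order was not counted. Cyp2c12 was at 9.69, 10.52 and 9.12 in STZ-O livers, against 9.04, 9.48 and 9.65 in CB-O livers. STZ-O replicate 2 was the highest, and the groups overlapped. The difference of 0.39 ± 0.32 (95% interval -0.36 to 1.14, limma adjusted p = 0.973) was 0.018 without STZ-O replicate 2 and 0.72 without STZ-O replicate 3.

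The male-specific genes were high on every array. Cyp2c11, the main androgen hydroxylase of male rat liver, was at 11.83, 12.14 and 11.89 in STZ-O livers, against 11.88, 11.87 and 12.00 in CB-O livers, a difference of 0.03 ± 0.09. Cyp2c13, another male-specific steroid hydroxylase, was at 12.41, 12.22 and 12.51 in STZ-O livers, against 12.36, 12.35 and 12.43 in CB-O livers, a difference under 0.001 in size, with an SE of 0.08. The groups overlapped for both genes, and 95% intervals ran from -0.18 to 0.24 and from -0.19 to 0.19. Of the 4 measured male-biased P450 genes, 1 was higher and 3 were lower, and of the 3 measured female-biased ones, 2 were higher and 1 was lower, with 0 passing the adjusted test in either list. The medians were -0.03 and 0.21. Probes of the Cyp2c genes can share hybridisation, and how much of the Cyp2c12 signal comes from its relatives was not tested.

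Of the remaining Cyp2c genes, Cyp2c22, a retinoic acid hydroxylase, was at 12.07, 12.08 and 12.27 in STZ-O livers, against 11.65, 12.03 and 12.19 in CB-O livers. CB-O replicate 1 was the lowest array, and the difference of 0.18 ± 0.13 was 0.030 without it. Cyp2c23, the main arachidonic acid epoxygenase of rat kidney, was at 10.93, 10.87 and 11.10 in STZ-O livers, against 11.26, 11.24 and 10.95 in CB-O livers. CB-O replicate 3 lay among the STZ-O arrays, and the difference was -0.18 ± 0.10 (limma adjusted p = 0.936). The dim Cyp2c24 and Cyp2c66 averaged 6.23 and 5.84, with overlapping groups.

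In the Cyp3a subfamily, which includes the main steroid 6-beta hydroxylases of rat liver, 4 of 5 genes were lower in STZ-O and 0 passed the test, with a median of -0.13 and differences from -0.23 to 0.0038. Cyp3a2, a male-predominant enzyme, was at 12.30, 12.45 and 12.39 in STZ-O livers, against 12.32, 12.47 and 12.56 in CB-O livers (difference -0.07 ± 0.08). Cyp3a18, also male-predominant, was at 11.21, 11.51 and 11.53 in STZ-O livers, against 11.40, 11.81 and 11.68 in CB-O livers (difference -0.21 ± 0.12, limma adjusted p = 0.936). For both genes the lowest array was STZ-O replicate 1, and the groups overlapped. Cyp3a62, an enzyme also found in the rat intestine, was at 7.90, 8.26 and 8.31 in STZ-O livers, against 8.13, 8.16 and 8.85 in CB-O livers. Its difference of -0.23 ± 0.20 rested on CB-O replicate 3, without which it was 0.0086. Cyp3a9, a female-predominant and oestrogen-inducible member, was at 9.66, 9.91 and 9.78 in STZ-O livers, against 9.95, 10.05 and 9.74 in CB-O livers (difference -0.13 ± 0.10). The dimmer Cyp3a9 probe set gave 0.026, so its probe sets disagreed in sign, and those of Cyp3a23-3a1 gave 0.0038 and -0.013. The mean deviation of the subfamily was -0.22, 0.03 and 0.00 in STZ-O livers, against -0.08, 0.12 and 0.15 in CB-O livers.

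**Figure D4:**
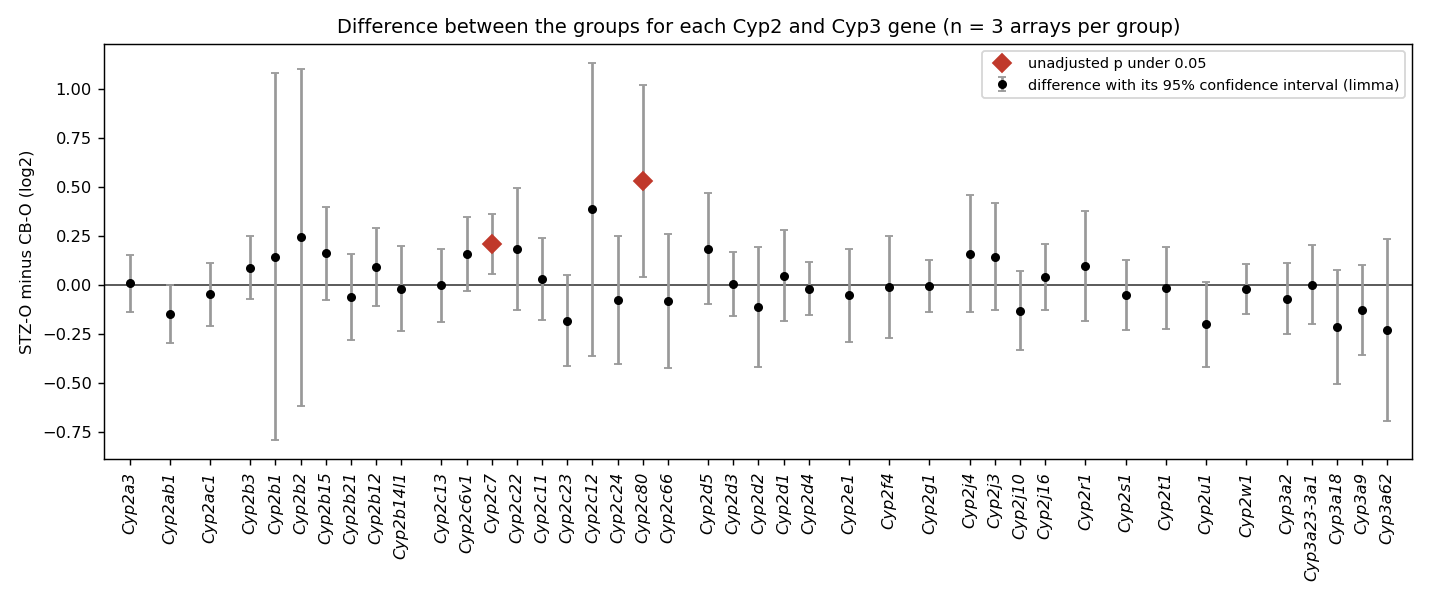
Difference STZ-O minus CB-O (log2) for each of the 42 genes by subfamily, with bars for the 95% confidence interval from limma and diamonds for the 2 genes with an unadjusted p under 0.05, Cyp2c7 (0.21) and Cyp2c80 (0.53). The widest intervals belong to Cyp2b1, Cyp2b2 and Cyp2c12, and apart from Cyp2c80 and Cyp2c12 (0.39) every difference lies within 0.25 of 0.

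Cyp2e1, which oxidises ethanol, acetone and other small molecules, was at 12.23, 12.01 and 12.32 in STZ-O livers, against 12.10, 12.39 and 12.22 in CB-O livers. The groups overlapped, with a difference of -0.05 ± 0.10 and a 95% interval of -0.29 to 0.19. The Cyp2d genes, whose human counterpart oxidises many amine drugs, had a higher STZ-O mean for 3 of 5 and a lower one for 2, from -0.11 to 0.19, and 0 passed. Their spread was uneven: the standard deviation over the 6 arrays was 0.199 for Cyp2d5, 0.197 for Cyp2d2 and 0.135 for Cyp2d1, but 0.0745 for Cyp2d3 and 0.0459 for Cyp2d4, against a median of 0.0927 over all genes. Cyp2d5 was at 11.36, 11.33 and 11.22 in STZ-O livers, against 11.41, 10.96 and 10.97 in CB-O livers. CB-O replicate 1 was the highest array, and the difference of 0.19 ± 0.12 (limma adjusted p = 0.955) was 0.34 without it and 0.11 without CB-O replicate 2. The mean deviation of the 5 Cyp2d genes was likewise highest on CB-O replicate 1, at 0.15. It was -0.07 and -0.11 on CB-O replicates 2 and 3, and 0.08, 0.03 and -0.07 on the STZ-O arrays.

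The Cyp2j enzymes oxidise arachidonic acid. Cyp2j4 was at 10.60, 10.24 and 10.05 in STZ-O livers, against 10.08, 10.21 and 10.12 in CB-O livers. STZ-O replicate 1 stood above the rest, and the difference of 0.16 ± 0.13 was 0.01 without it. Cyp2j3 averaged 10.1 with overlapping groups, and the dim Cyp2j10 was at 6.50, 6.27 and 6.41 in STZ-O livers, against 6.53, 6.40 and 6.65 in CB-O livers (difference -0.13 ± 0.09). Among the 5 P450 genes listed as arachidonate epoxygenases, the STZ-O mean was higher for 3 and lower for 2 (median 0.041), and 0 passed.

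The members outside these subfamilies averaged no more than 8.21, below the 95th percentile of negative controls, apart from Cyp2e1. Cyp2u1, a fatty acid hydroxylase, was at 6.73, 6.61 and 6.87 in STZ-O livers, against 7.09, 6.87 and 6.83 in CB-O livers (difference -0.20 ± 0.09, limma adjusted p = 0.902). Cyp2ab1 was at 5.61, 5.71 and 5.66 in STZ-O livers, against 5.80, 5.72 and 5.88 in CB-O livers. All 3 STZ-O arrays were below the CB-O arrays, narrowly so for the nearest pair, and the difference of -0.14 ± 0.06 did not pass (unadjusted p = 0.053, limma adjusted p = 0.883). Cyp2r1, which encodes a vitamin D 25-hydroxylase, was at 7.32, 7.14 and 6.95 in STZ-O livers, against 7.16, 7.13 and 6.82 in CB-O livers. Cyp2f4, known as a naphthalene-oxidising enzyme of the lung, was at 8.32, 8.23 and 8.07 in STZ-O livers, against 8.44, 8.16 and 8.03 in CB-O livers. The groups overlapped for both. Cyp2a3, Cyp2s1, Cyp2t1 and Cyp2w1 averaged between 6.42 and 7.84, with differences between -0.05 and 0.01. Of the 10 genes listed as CYP2 enzymes mainly of lung, nose and gut, 0 averaged above 8.26, and the STZ-O mean was higher for 3 and lower for 7 (median -0.0097).

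Of the genes that serve the P450 enzymes, 0 passed the adjusted threshold. Por was at 9.85, 9.81 and 9.90 in STZ-O livers, against 9.94, 10.21 and 9.91 in CB-O livers. All 3 STZ-O arrays were below the CB-O arrays, and the difference was -0.17 ± 0.09 (limma adjusted p = 0.917), or -0.07 without CB-O replicate 2. Of the 6 electron transfer genes 2 were higher and 4 lower, 0 with an unadjusted p under 0.05. The groups did not overlap for 2 of the 6, Por included, both lower in STZ-O (4.93% of all genes were). Beside Por the largest t was that of Pgrmc1, a P450-binding membrane protein, at -0.09 ± 0.06. Alas1, the rate-limiting enzyme of haem synthesis in liver, was at 11.21, 10.93 and 11.19 in STZ-O livers, against 10.88, 10.89 and 10.65 in CB-O livers, with no overlap. The difference was 0.31 ± 0.10 (1.24-fold, unadjusted p = 0.0156, limma adjusted p = 0.795). Alas1 was the only one of 11 measured haem genes with an unadjusted p under 0.05 (5.68% of all genes had). It was also the only one without overlap (10.1% of all genes had none), and 4 of the 11 were higher and 7 lower. Ppox, a later enzyme of the pathway, had the next largest t, at 0.11 ± 0.06. For Alas1, STZ-O replicate 2 was the lowest STZ-O array, whereas for Cyp2b1 it was the highest. A link between Alas1 and the P450 values was not tested.

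Among 11 genes of growth hormone signalling, which sets the sex pattern of the Cyp2c and Cyp3a genes, the STZ-O mean was higher for 9 and lower for 2 (median 0.13). For 5 of them every STZ-O array was above the CB-O arrays (5.2% of all genes), 1 had an unadjusted p under 0.05 (5.68% of all genes) and 0 passed. That 1 gene was Igf1, the hormone that the liver secretes in answer to growth hormone, at 0.19 ± 0.05 (limma adjusted p = 0.68). Ghr and Stat5b, the receptor and its transcription factor, differed by 0.13 ± 0.07 and 0.07 ± 0.05, and Jak2, the kinase between them, by 0.14 ± 0.07. A pair of genes chosen after their values were seen stood out on CB-O replicate 3. Cish, a feedback inhibitor induced by STAT5, had the largest difference of the list, -0.63 ± 0.50, and was at 6.15, 6.02 and 6.11 in STZ-O livers, against 6.25, 5.85 and 8.08 in CB-O livers. Bcl6, a repressor that opposes STAT5, was at 8.41, 8.19 and 8.96 in STZ-O livers, against 8.64, 8.96 and 7.25 in CB-O livers. CB-O replicate 3 was thus the highest array for Cish and the lowest for Bcl6, and the part of this in the P450 values was not tested. Among 17 xenobiotic and liver transcription factors the STZ-O mean was higher for 9 and lower for 8 (median 0.0057), and 0 passed. At an unadjusted p under 0.05, 2 were higher and 1 lower (3.2% and 2.48% of all genes). Those with the largest t were Ppara (0.47 ± 0.11) and Ahr, the receptor that drives Cyp1 genes (0.38 ± 0.15, and 0.19 without STZ-O replicate 3).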

How the data were processed

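The deposited table of the RTA-1_0 arrays holds a log2 level for each of 70580 probe sets in each liver. Per the submitters' processing notes they used Affymetrix Expression Console 1.4.1 and RMA, which subtracts background and aligns the arrays. In array values of this kind, differences of dim or very bright probe sets are compressed. The settings, annotation and build were not given in the sources used here. After removal of controls 68842 probe sets remained, of which 23446 carried 1 symbol, for 22093 genes. Array medians were 5.77 to 5.82 and correlations between arrays 0.991 to 0.994. Each gene's brightest probe set was tested with limma 3.58.1 (lmFit and eBayes, a two-sided test) under R 4.3.3, without covariate and with adjustment over all genes. In simulated data for the STZ-O minus CB-O comparison on 22093 genes, 96% of 100 genes changed by 1 log2 unit were recovered. The largest member difference was 0.53, and smaller changes than 1 were not simulated. The recovery therefore does not show whether differences of the size seen here could pass. The number of arrays limits the precision, and the p-values set each difference against the spread between these rats. The fathers were the treated animals, and the labels do not give their number. The spread between fathers therefore cannot be told from these values.

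Members and lists were chosen with earlier results of these data known. Values are given by array or range for the brightest member of each subfamily, the 8 highest and 8 lowest members by moderated t, and the sex-biased and CAR or PXR inducible P450 lists; other genes are the 2 with the largest t of each partner, regulator or target list, with Nr1i2, Nr1i3, Por, Alas1, Ghr and Stat5b. Of the members, 37 matched RefSeq by Entrez identifier and 4 by symbol. Alternatives comprised leaving out each array, a replicate block, trend with robust variances, array weights, median centring, quantile normalisation, 2 brightness filters, mean probe sets, an unmoderated statistic and the Y-linked level as covariate.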

Additional observations from a re-analysis of the deposited data

How the results depend on the processing

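Under the 16 alternatives 0 members passed the adjusted threshold, as with all arrays (2 at an unadjusted p under 0.05 there), and the median difference of members stayed between -0.015 (without STZ-O replicate 2) and 0.039 (without STZ-O replicate 3). The number of members with an unadjusted p under 0.05 was 4 with the replicate block and with array weights, and 1 among genes above the 95th percentile of negative controls and with the unmoderated statistic. With 1 array left out it ran from 2 (without STZ-O replicate 2 or CB-O replicate 2) to 6 (without CB-O replicate 3), with 4 without STZ-O replicate 1 or CB-O replicate 1 and 5 without STZ-O replicate 3. Same-numbered arrays share only a number: their deviations correlated at 0.15, -0.17 and 0.10 across genes, so the block is not evidence of pairing.

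Of 702 differences of 31 named members and 14 other genes under the alternatives, 34 had the opposite sign, none of them past the threshold; the cause was not tested. Beyond left-out arrays, 7 did so: Cyp2f4 (0.015 with array weights, 0.014 with the Y-linked covariate), Cyp2t1 (0.0092) and Cyp3a23-3a1 (-0.017) with that covariate, Cyp2c13 (0.0062) and Cyp2g1 (0.0033) with median centring, and Cyp3a23-3a1 (-0.0045) with mean probe sets. With 1 array left out, the values ran from -0.034 to 0.044 for Cyp2a3, -0.28 to 0.67 for Cyp2b1, -0.14 to 0.73 for Cyp2b2, -0.060 to 0.096 for Cyp2c11, -0.065 to 0.079 for Cyp2c13, -0.12 to 0.038 for Cyp2e1, -0.097 to 0.11 for Cyp2f4, -0.024 to 0.023 for Cyp2g1, -0.0073 to 0.19 for Cyp2r1, -0.11 to 0.017 for Cyp2s1, -0.077 to 0.056 for Cyp2t1, -0.063 to 0.074 for Cyp3a23-3a1, -0.35 to 0.0086 for Cyp3a62, -0.17 to 0.091 for Nr1i2 and -0.026 to 0.18 for Nr1i3. In all, 30 of the 31 named members moved by over 1.5 times or changed sign without 1 array, the exception being Cyp2c7, which in turn went to 0.10 with mean probe sets. Members under the negative control percentile have little signal over background.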
